A study of Homo sapiens with 6 samples.

Results

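The collagen hydroxylases and lysyl oxidases are enzymes that modify collagen chains inside the cell and cross-link collagen outside it. The 10 genes described here were listed by symbol out of the 38100 genes of the deposited tables. They are 3 alpha subunits of prolyl 4-hydroxylase (P4HA1, P4HA2 and P4HA3), its beta subunit (P4HB), 3 lysyl hydroxylases (PLOD1, PLOD2 and PLOD3) and 3 lysyl oxidases (LOX, LOXL1 and LOXL2). The group was chosen by the normalized counts of P4HA1 and P4HA2, which differed between the conditions. The differences of these genes are therefore a description without a test, and the other 8 genes were tested. The study asked how SIRT4, a sirtuin best known from mitochondria, acts on fibrotic gene expression in kidney tubular cells. HK2 cells, an established line of human proximal tubular epithelium labelled wild type, carried an adenovirus, which was either the control virus (AdCtrl) or the virus for SIRT4 (AdSIRT4). Both groups were stimulated with TGF-β1, so neither the effect of TGF-β1 nor that of the virus can be read from these data, and the dose and time for these samples are not given in the sources used here. Each group had 3 samples, and RNA was sequenced after selection of polyadenylated transcripts. Nothing in the labels says that the samples came from separate cultures, and the study's reporting checklist describes replicates in vitro as technical. The errors and p-values below then measure the spread between these samples alone.

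Collagen chains are hydroxylated in the endoplasmic reticulum before they fold into a triple helix. Prolyl 4-hydroxylase is a tetramer of alpha subunits, which carry the catalytic site, and beta subunits, which are the protein disulfide isomerase P4HB. The hydroxyproline it makes keeps the helix stable at body temperature. Lysyl hydroxylases modify lysine residues of the helix and of the telopeptides at its ends, and these residues later take part in cross-links. Lysyl oxidases are copper enzymes that are secreted and oxidize lysine and hydroxylysine, which starts the cross-linking of the fibril. The hydroxylases need oxygen, iron, ascorbate and 2-oxoglutarate. P4HA1, P4HA2, PLOD2 and LOX are known as genes that hypoxia-inducible factors can induce, and collagen cross-linking is a feature of fibrotic kidney.

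The libraries held between 41537353 and 85684748 counts. For a gene without a count the limit of 3 counts lay between 0.0350 and 0.0722 CPM (counts scaled to a common library size), for counting error alone. This limit was scaled by total counts, while the CPM of single genes below also use TMM normalization factors. Values of single samples are given in the order of replicates 1, 2 and 3 throughout. SIRT4, the introduced gene, had raw counts of 31, 47 and 57 in the AdCtrl samples and of 1996, 7995 and 6827 in the AdSIRT4 samples. In CPM these were 0.573, 1.11 and 1.11 against 51.2, 92.7 and 84.0, so AdSIRT4 replicate 1 had the least SIRT4 of its group. AdSIRT4 replicate 1 stood apart from the other libraries of its group. Its deviation from the group mean fell with gene length (Spearman correlation of -0.58 across genes, which are not independent replicates), where the correlation was 0.50 and 0.51 in AdSIRT4 replicates 2 and 3 and lay between -0.18 and 0.17 in the AdCtrl libraries. Deviations from a mean of 3 samples are tied to each other, so the sign in the other AdSIRT4 libraries is no separate observation. Of 6 epithelial keratins and adhesion genes, 5 had a mean of at least 1 FPKM (counts scaled by gene length and library size), with CDH1 as the exception, and PAX8 of the kidney lineage was between 48.6 and 54.6 FPKM in the AdCtrl samples. The proximal tubule markers LRP2, CUBN, SLC34A1, SLC22A6, SLC22A8, AQP1 and ANPEP stayed at or below 0.308 FPKM, and GGT1 alone of these 8 markers was present. Endothelial markers summed to at most 0.0678 FPKM, immune markers to at most 1.63 FPKM, nearly all of it CD14, and fibroblast markers to between 8.66 and 9.93 FPKM, made up mainly of COL1A1 and LUM, while COL3A1 had no count.

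The levels of the 10 genes, compared per length in FPKM, spread widely. In AdCtrl cells P4HB had the highest level, 278.7 ± 14.3 FPKM (SD, n = 3). LOXL2 followed at 131.6 ± 5.27 FPKM (SD, n = 3) and PLOD2 at 122.7 ± 9.56 FPKM (SD, n = 3), and the samples of these neighbours overlapped. Next in order were PLOD1 (56.9 ± 3.34 FPKM), P4HA1 (32.3 ± 1.97 FPKM), PLOD3 (21.5 ± 1.98 FPKM), LOXL1 (13.0 ± 0.736 FPKM), LOX (10.1 ± 1.38 FPKM) and P4HA2 (7.68 ± 0.931 FPKM; SD, n = 3 for each). P4HA3 was lowest at 0.158 ± 0.0114 FPKM (SD, n = 3). All other neighbours were separate in the AdCtrl samples. In the AdSIRT4 samples P4HA1 overlapped with PLOD1, and P4HA2 overlapped with LOX. The means of PLOD2 and LOXL2 stood in the other order there, at 145.0 ± 7.67 and 128.7 ± 31.6 FPKM (SD, n = 3), with samples that overlapped again.

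**Figure D1:**
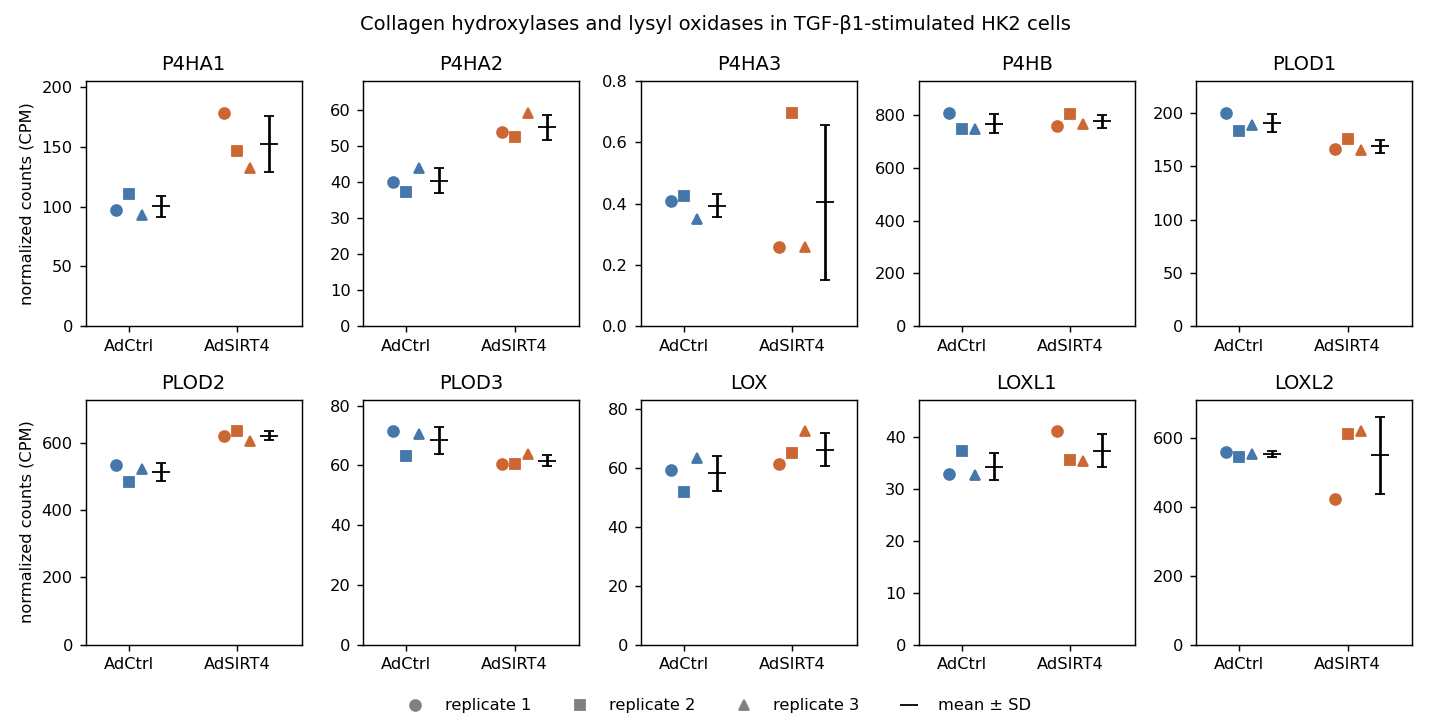
Normalized counts (CPM) of the 10 genes in each sample, with replicates as separate symbols and the mean ± SD (n = 3) beside each group, and a vertical axis that starts at 0 in every panel. P4HA1, P4HA2 and PLOD2 are higher and PLOD1 is lower in all 3 AdSIRT4 samples than in any AdCtrl sample, and in LOXL2 AdSIRT4 replicate 1 lies apart at 422 CPM.

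P4HA1, the main catalytic alpha subunit of prolyl 4-hydroxylase in most tissues, was higher with SIRT4. The gene lies on the minus strand of chromosome 10, at 73007217 to 73096866 (GRCh38). Its raw counts were 5243, 4691 and 4801 in the AdCtrl samples and 6959, 12671 and 10761 in the AdSIRT4 samples. Scaled by library size and TMM normalization factors these were 97.0, 110.4 and 93.4 CPM against 179, 147 and 132 CPM. The lowest AdSIRT4 sample lay above the highest AdCtrl sample, and AdSIRT4 replicate 1, the library that stood apart, had the highest value. On the log2 scale the difference was 0.61 (SE 0.138), from means of 100.3 ± 8.95 and 152.6 ± 23.6 CPM (SD, n = 3). Leaving out AdSIRT4 replicate 1 gave 0.47, the lowest value when single samples were dropped, and the highest was 0.70 without AdSIRT4 replicate 3. Of all 17720 genes tested, 4.42% had a larger log2 fold change. In these whole-culture samples, more cells with a transcript and more transcript per cell cannot be told apart.

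P4HA2, a second alpha subunit that forms its own tetramer with P4HB, was also higher. The gene lies on the minus strand of chromosome 5, at 132190147 to 132227853 (GRCh38). Its normalized counts were 40.0, 37.1 and 44.0 CPM with the control virus and 53.9, 52.5 and 59.2 CPM with the SIRT4 virus. The groups did not overlap, and AdSIRT4 replicate 1 lay between the other samples of its group. On the log2 scale the difference was 0.45 (SE 0.104), from means of 40.4 ± 3.44 and 55.2 ± 3.53 CPM (SD, n = 3). The value was 0.46 without AdSIRT4 replicate 1, and 7.47% of the tested genes had a larger one. The P4HA2 locus overlaps 3 counted genes on the opposite strand, which are P4HA2-AS1, with at most 2 counts in any sample, PDLIM4, with at most 14, and SLC22A4, with 98 to 315.

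P4HA3, the remaining alpha subunit, had the fewest counts. It had 22, 18 and 18 counts in the AdCtrl samples and 10, 60 and 21 counts in the AdSIRT4 samples. The groups overlapped, and AdSIRT4 replicate 2 alone held most of the counts of its group. The log2 fold change was 0.079 (SE 0.457, adjusted p = 0.957 from edgeR) and -0.60 without that library. The locus overlaps PPME1 on the opposite strand, which had 3049 to 8215 counts per sample. Whether the counting used strand is not given in the sources used here, so reads of these neighbours cannot be told apart.

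P4HB, the beta subunit and an abundant protein disulfide isomerase of the endoplasmic reticulum, was near the same level in both groups. Its normalized counts were 808, 748 and 748 CPM with the control virus and 757, 805 and 767 CPM with the SIRT4 virus. The groups overlapped almost fully. Its log2 fold change was 0.016 (SE 0.108, adjusted p = 0.962 from edgeR).

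Within the enzyme, P4HA1 made up 80.4% ± 2.64 of the summed alpha subunit FPKM in AdCtrl cells and 81.8% ± 2.83 in AdSIRT4 cells (SD, n = 3), with samples that overlapped. The makeup of the alpha subunits thus stayed within the spread of the samples while their sum differed, from 40.1 ± 1.34 to 58.3 ± 4.05 FPKM (SD, n = 3). P4HB exceeded this sum by a ratio of 7.51, 6.35 and 7.03 in the AdCtrl samples and of 4.04, 5.07 and 5.15 in the AdSIRT4 samples. The excess of beta over alpha transcript was lower in every AdSIRT4 sample than in any AdCtrl sample. This ratio follows from the P4HA1 and P4HA2 differences for which the group was chosen and is a description.

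PLOD2, the lysyl hydroxylase that acts on telopeptides, was higher with SIRT4 in all samples. The gene lies on the minus strand of chromosome 3, at 146069440 to 146161184 (GRCh38). Its normalized counts were 533, 483 and 523 CPM with the control virus and 621, 633 and 606 CPM with the SIRT4 virus. The groups did not overlap, and AdSIRT4 replicate 1 lay between the other samples of its group. The log2 fold change was 0.27 (SE 0.104), from means of 513 ± 26.5 and 620.3 ± 13.6 CPM (SD, n = 3). In edgeR's test its p was 0.0335 before and 0.612 after adjustment, so it did not pass the threshold of 0.05. The exact permutation test (two-sided, unpaired) gave p = 0.1, the smallest that 3 samples against 3 allow without pairing. Without AdSIRT4 replicate 1 the log2 fold change was again 0.27, and its adjusted p from edgeR was 0.0216. Over all alternative fits the adjusted p of PLOD2 ran from 0.0178 to 0.971.

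PLOD1, the lysyl hydroxylase of the helical part of collagen, lay lower in all AdSIRT4 samples. Its normalized counts were 200.2, 184 and 189 CPM with the control virus and 166, 176 and 165 CPM with the SIRT4 virus. The log2 fold change was -0.18 (SE 0.0913, adjusted p = 0.690 from edgeR; two-sided exact permutation test, p = 0.1). PLOD3, which also carries glycosyltransferase activity toward hydroxylysine, had 71.3, 63.1 and 70.6 CPM against 60.5, 60.6 and 63.7 CPM. Here AdCtrl replicate 2 lay below AdSIRT4 replicate 3, so the groups overlapped. Its log2 fold change was -0.15 (SE 0.0906, adjusted p = 0.718 from edgeR; two-sided exact permutation test, p = 0.2). Compared by replicate number, PLOD3 was lower with SIRT4 in 3 of 3 pairs, and the share of all tested genes with such pairs was not counted. The PLOD3 locus overlaps ZNHIT1 on the opposite strand, which had 1802 to 3512 counts per sample.

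The makeup of the lysyl hydroxylases differed between the groups in all samples. PLOD2 held 60.9%, 60.7% and 61.4% of the summed FPKM of PLOD1, PLOD2 and PLOD3 in the AdCtrl samples and 68.4%, 68.0% and 67.8% in the AdSIRT4 samples. The share of PLOD1 was 28.3% ± 0.591 in AdCtrl cells and 23.1% ± 0.361 in AdSIRT4 cells, and that of PLOD3 was 10.7% ± 0.222 and 8.88% ± 0.412 (SD, n = 3). The groups did not overlap in any of these shares, and the gap between groups was wider than the spread within them, AdSIRT4 replicate 1 included. The sum of the 3 genes was 201.1 ± 14.8 FPKM in AdCtrl cells and 213 ± 12.1 FPKM in AdSIRT4 cells (SD, n = 3), with samples that overlapped. The ratio of PLOD2 to PLOD1 FPKM was 2.16 ± 0.0587 and 2.95 ± 0.0525 (SD, n = 3). These shares come from the contrast on which the group was chosen and carry no test.

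Since P4HA1, P4HA2, PLOD2 and LOX are textbook targets of hypoxia-inducible factors, which bind the cores ACGTG and GCGTG, the promoters were searched for these letters on both strands. The window ran from 250 bases before to 50 bases after each start listed in a promoter table drawn from RefSeq (GRCh38.p14), which held 8 of the 10 genes. Of the genes, LOX had 3 listed starts, each with its own window. ACGTG occurred in the windows of 3 of these genes (P4HA1, PLOD2 and LOX) and GCGTG in those of 4 (PLOD1, PLOD2, LOX and P4HB). Of all 35116 promoter windows, 21.4% held ACGTG and 36.5% held GCGTG. The 1 start listed for P4HA2 lies inside the span of the gene given above, so the bases before the outer end of that span were not searched. Its window held neither, which says only that these letters are not in it. PLOD1, which was lower in all AdSIRT4 samples, held 2 GCGTG matches and PLOD2 held 1, and these are not shown. LOX, whose groups overlapped, held 4 ACGTG matches in 1 window, more than any other of these genes. Its other windows held 1 each, at the same bases, and the LOX matches are not shown either. The choice of what is shown uses the group difference, so it says nothing of a link between the 2. Shown are the matches of ACGTG for P4HA1 and PLOD2, the genes with both an ACGTG match and samples that did not overlap. Each is 21 bases long, read 5′ to 3′ along the strand of the gene, with the match in capitals, which reads CACGT where ACGTG is on the other strand.
P4HA1, chr10:73096940-73096960, minus strand, 86 bases before the start: atcgagctCACGTagcgaggg
PLOD2, chr3:146161372-146161392, minus strand, 200 bases before the start: agcctccaCACGTagccgcag
PLOD2, chr3:146161318-146161338, minus strand, 146 bases before the start: cagtccagACGTGgggcccag
A match is a description of the letters and not a measured binding site.

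Among the lysyl oxidases, none passed the test. LOX, the founding enzyme of the family, had 59.3, 51.5 and 63.4 CPM with the control virus and 61.2, 64.8 and 72.2 CPM with the SIRT4 virus. AdCtrl replicate 3 lay above AdSIRT4 replicate 1, and the log2 fold change was 0.19 (SE 0.115, adjusted p = 0.719 from edgeR; two-sided exact permutation test, p = 0.2). Compared by replicate number in CPM, LOX was higher with SIRT4 in 3 of 3 pairs, and the replicate block in edgeR called neither LOX nor PLOD3. In the other enzymes whose groups overlapped, P4HA3, P4HB, LOXL1 and LOXL2, the pairs went both ways. The share of all tested genes with 3 of 3 pairs in one direction was not counted, so nothing can be read from these pairs. In FPKM the LOX value of replicate 1 was lower with SIRT4, at 10.3 in AdCtrl and 9.82 in AdSIRT4 cells. The locus overlaps SRFBP1 on the opposite strand, with 460 to 1347 counts per sample.

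LOXL1, which is tied to elastic fibers, had 33.0, 37.4 and 32.7 CPM with the control virus and 41.2, 35.7 and 35.5 CPM with the SIRT4 virus. AdSIRT4 replicate 1 was highest and the other samples of the groups overlapped. The log2 fold change was 0.12 (SE 0.108, adjusted p = 0.769 from edgeR; two-sided exact permutation test, p = 0.3), and it was 0.048 without AdSIRT4 replicate 1. LOXL1-AS1 on the opposite strand had 387 to 870 counts per sample, where LOXL1 had 1588 to 3080.

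LOXL2, which acts on collagen IV of basement membranes, was the most abundant lysyl oxidase. Its normalized counts were 561, 546 and 554 CPM with the control virus and 422, 611 and 619 CPM with the SIRT4 virus. AdSIRT4 replicate 1 lay below all AdCtrl samples and the other AdSIRT4 replicates lay above them. With all samples the log2 fold change was -0.0076 (SE 0.166, adjusted p = 0.988 from edgeR; two-sided exact permutation test, p = 1). Without AdSIRT4 replicate 1 it was 0.15 (SE 0.0489, adjusted p = 0.0954 from edgeR), so the direction rested on this library. The adjusted p lay between 0.0954 and 0.999 over all alternative fits. LOXL2 held 85.0% ± 0.330 of the summed FPKM of LOX, LOXL1 and LOXL2 in AdCtrl cells and 79.3%, 85.4% and 84.9% in the AdSIRT4 samples. ENTPD4, which overlaps the locus on the same strand, had 2169 to 6675 counts per sample.

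Counted over the group, all 10 genes had enough counts to be tested. The AdSIRT4 samples lay wholly above the AdCtrl samples for 3 of them and wholly below for 1, where 9.66% of all tested genes lay wholly above, 9.77% wholly below and 19.4% did either. Nothing can be read from these shares, since P4HA1 and P4HA2 were chosen for their difference. Of the other 8 genes, 0 had an adjusted p under 0.05 in edgeR, which 0.0113% of all tested genes had. PLOD2 alone of the 8 had an unadjusted p under 0.05, a threshold that 4.43% of all tested genes passed in the higher and 3.5% in the lower direction. DESeq2, which called 1.16% of all tested genes, and limma on the FPKM called 0 of the 8 as well. PLOD2 was called by limma voom with sample quality weights (adjusted p = 0.0178), which called 8.74% of all tested genes, and by edgeR without AdSIRT4 replicate 1, which called 6.71%.

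**Figure D2:**
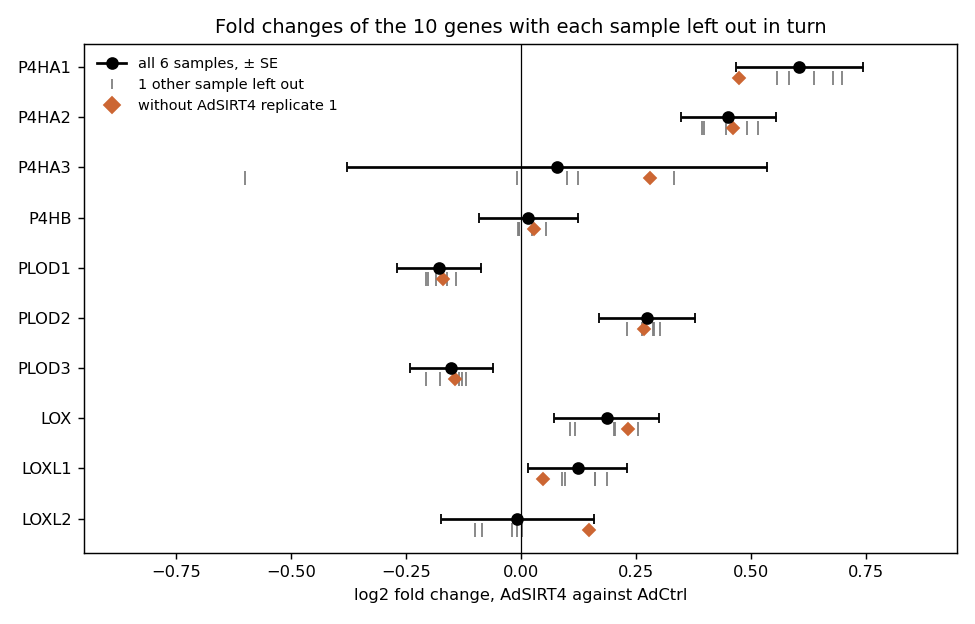
Log2 fold change of AdSIRT4 against AdCtrl for the 10 genes, with all 6 samples (black, ± SE) and after dropping 1 sample at a time (grey ticks, and orange diamonds without AdSIRT4 replicate 1). P4HA1 and P4HA2 stay above 0.39 and PLOD2 above 0.23 in every fit, PLOD1 and PLOD3 stay below 0, and P4HA3, P4HB and LOXL2 cross 0.

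The pattern of P4HA1 over the 6 samples was most like those of VMA21 (Pearson correlation of log2 CPM 0.998), MYADM (0.996) and TTC30A (0.995). P4HA2 was most like ZNF280D (0.996), LOC102724428 (0.994) and LINC02783 (0.994). These were the closest of 14101 genes, and the difference of P4HA1 or P4HA2 between the groups enters each value. P4HA1 and P4HA2 had a correlation of 0.73 with each other, and their values with PLOD2 were 0.81 and 0.92. With PLOD1, which lay lower in the AdSIRT4 samples, they were -0.85 and -0.84. P4HA1 was at 0.84 with LOXL1 and at -0.89 with PLOD3, where P4HA2 was at 0.33 and -0.53. P4HA2 was at 0.86 with LOX, where P4HA1 was at 0.28. All of these describe the 6 libraries and carry no test.

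Genes around these enzymes were grouped into lists drawn up from textbook roles. The collagen processing list held 25 genes for prolyl 3-hydroxylation, chaperones, glycosylation, secretion and propeptide cleavage, with LOXL3 and LOXL4, and 23 of them were tested. Of these, 5 had a log2 fold change above 0 and 18 below, while 53.4% of all tested genes were above 0. The list had a median of -0.093 against 0.021 over all tested genes. The AdSIRT4 samples lay wholly below the AdCtrl samples for 5 genes and wholly above for 0, against 9.77% and 9.66% of all tested genes, and 0 genes had an adjusted p under 0.05 in edgeR. At an unadjusted p under 0.05, 2 genes were lower and 0 higher. SEC23A, a coat protein of the vesicles that carry procollagen, had 133.2 ± 3.83 CPM in AdCtrl and 113.7 ± 0.828 CPM in AdSIRT4 cells (SD, n = 3; log2 fold change -0.23, adjusted p = 0.602 from edgeR). FKBP14, a prolyl isomerase of the endoplasmic reticulum, and CRTAP, a subunit of the prolyl 3-hydroxylase complex, had log2 fold changes of -0.25 and -0.22 (adjusted p = 0.612 and 0.646 from edgeR). Without AdSIRT4 replicate 1 the median was -0.15, and 3 of the 23 genes had an adjusted p under 0.05, a threshold that 6.71% of all genes passed in that fit. SEC23A was among the 3 (adjusted p = 0.0220 from edgeR), and FKBP14 and CRTAP were not (0.0791 and 0.0685). The remaining lysyl oxidases, LOXL3 and LOXL4, named after their values were seen, were low, at 0.974 ± 0.151 and 2.34 ± 0.172 FPKM in AdCtrl cells (SD, n = 3).

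Of 16 collagen chains, which are the substrates of these enzymes, 12 were tested, 4 above and 8 below 0. Their median was -0.099, and 0.017 without AdSIRT4 replicate 1, so its sign rested on that library. COL7A1, the collagen of anchoring fibrils, was higher in every AdSIRT4 sample, with 332.3 ± 13.6 CPM against 460.4 ± 28.7 CPM (SD, n = 3; log2 fold change 0.47, adjusted p = 0.494 from edgeR). With DESeq2 its adjusted p was 0.000258, and without AdSIRT4 replicate 1 it was 0.00127 in edgeR. In that fit 2 genes of the list passed 0.05, against 6.71% of all genes tested. COL1A1, a chain of the main fibrillar collagen, and COL4A1, a chain of basement membranes, had log2 fold changes of -0.25 and -0.24 (adjusted p = 0.701 and 0.739 from edgeR). Both were lowest in AdSIRT4 replicate 1, at 17.7 and 1463 CPM, and their values without it were -0.14 and -0.097. COL4A1 was the most abundant chain of the list in AdCtrl cells, at 297.2 ± 12.7 FPKM (SD, n = 3).

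The cofactor list held 11 genes, mostly for the handling of copper, iron, ascorbate and 2-oxoglutarate. Their transcripts do not measure the supply of these. All were tested, with 4 above and 7 below 0 and a median of -0.097 that was -0.0020 without AdSIRT4 replicate 1. EFEMP2, a fibulin that binds LOX, had a log2 fold change of 0.38. SLC31A1, the copper importer of the plasma membrane, had -0.25, and SLC23A1, an ascorbate transporter, had -0.28. Without AdSIRT4 replicate 1 the values of EFEMP2, SLC31A1 and SLC23A1 were 0.34, -0.14 and -0.33. With all 6 samples the smallest adjusted p of the list in edgeR was 0.678. Without AdSIRT4 replicate 1, 2 of the 11 genes passed 0.05, against 6.71% of all genes tested in that fit. Neither passing gene is among those named here.

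Other oxygenases that use 2-oxoglutarate numbered 10, with 6 above and 4 below 0 and a median of 0.10. EGLN1, a prolyl hydroxylase that marks hypoxia-inducible factors for degradation, was higher in every AdSIRT4 sample, at 78.0, 80.6 and 78.6 CPM in the AdCtrl samples against 114.2, 105.7 and 101.1 CPM with the SIRT4 virus. Its log2 fold change was 0.44 (SE 0.0896, adjusted p = 0.489 from edgeR). The adjusted p was 0.000875 in DESeq2 and 0.00283 in edgeR without AdSIRT4 replicate 1. In that last fit 3 of the 10 genes passed 0.05, against 6.71% of all genes tested. EGLN3, a relative of EGLN1, and KDM3A, a histone demethylase, had log2 fold changes of 0.53 and 0.23 (adjusted p = 0.612 and 0.678 from edgeR). The groups overlapped for EGLN3 and did not for KDM3A. Without AdSIRT4 replicate 1 their log2 fold changes were 0.317 and 0.318 (adjusted p = 0.193 and 0.00554 from edgeR).

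A list of 23 genes known to rise in hypoxia, which holds EGLN3 and KDM3A as well but none of the 10 enzymes, had 22 genes above 0 and 1 below. The median was 0.49, and 0.45 without AdSIRT4 replicate 1. The list was written with the behaviour of hypoxia genes in these samples known, so it is not independent evidence of its direction. The AdSIRT4 samples lay wholly above the AdCtrl samples for 16 of these genes and wholly below for 1, DDIT4, which is named after its values were seen, against 9.66% and 9.77% of all tested genes. At an unadjusted p under 0.05, 15 were higher and 1 lower, against 4.43% and 3.5% of all tested genes, and 0 had an adjusted p under 0.05 in edgeR. Without AdSIRT4 replicate 1, 14 had an adjusted p under 0.05, against 6.71% of all genes tested in that fit. NDRG1, a marker of hypoxic cells, reached 83.2 ± 3.96 CPM and 166.1 ± 14.4 CPM (SD, n = 3; log2 fold change 1.00, adjusted p = 0.0892 from edgeR). PFKFB4, which regulates glycolysis, and PDK1, the kinase that inhibits pyruvate dehydrogenase, had log2 fold changes of 0.78 and 0.62 (adjusted p = 0.239 for each from edgeR). With DESeq2 the adjusted p of NDRG1, PFKFB4 and PDK1 was 5.26e-15, 3.64e-07 and 2.04e-08, and in edgeR without AdSIRT4 replicate 1 it was 3.32e-05, 0.00127 and 0.000309.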

How the data were processed

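Whole-number counts per gene were deposited by the authors without normalization for 6 RNA-seq samples, with a second table whose unit is not named. The second table was taken as FPKM, since for 11758 of 15894 genes the gene length implied by both deposited tables was the same in all samples within 5% after a constant per sample. The submitters' processing notes name fastp 0.21.0, HISAT2 2.1.0, StringTie 2.1.5, DESeq2 1.30.1 and hg38, without their roles.

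Counts were filtered with filterByExpr (minimum count 10), scaled with TMM and tested with the robust quasi-likelihood test of edgeR 4.0.16 in R 4.3.3, with Benjamini-Hochberg adjustment over 17720 genes. The log2 CPM of single genes were compared by exact permutation (two-sided) in scipy 1.17.1. The alternatives were DESeq2 1.42.0, limma 3.58.1, other filters and scalings, removal of length trends, the replicate block and each sample left out. Simulated counts were used to test edgeR with each scaling, with the replicate block and with length trends removed. DESeq2, limma voom and limma on log2(FPKM + 1) were tested on them as well. The other filters, the samples left out and the permutation were not simulated. The simulated counts held no outlying library, length trend or pairing, so they do not show how the fits handle these. Deviations from the group means correlated at 0.178, 0.159 and 0.176 between samples with the same number and between -0.188 and 0.030 otherwise. The replicate numbers may therefore pair the samples, though the titles do not say so. The edgeR test and the exact permutation did not use this pairing, and the replicate block was run as an alternative.

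The genes and lists were chosen with earlier results of these data known. Named were all 10 enzymes, the 3 genes with the smallest p in each list, and the 3 genes most like P4HA1 and P4HA2 with a mean of at least 1 CPM. Locations and promoters are from RefSeq and overlapping genes from GENCODE v29, both on GRCh38. The cell-line label names a different HK number for each sample, while every title names HK2, which was used.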

Additional observations from a re-analysis of the deposited data

How the results depend on the processing

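The number of genes with an adjusted p under 0.05 was 2 in edgeR's test of all 6 samples and depended strongly on the procedure, so calls of single genes near the threshold are limited. It was 206 with DESeq2, 5 with all genes of at least 1 count, 4 with genes of at least 10 counts in every sample, 8 with the length trend removed, 1549 with limma voom and sample quality weights, 0 in limma on log2(FPKM + 1), 1 at a pseudocount of 0.1 and 5 after dropping genes with a mean FPKM below 1. With the replicate block it was 1, and the block changed no call among the 8 tested enzymes. With each sample left out it ran from 0 to 1227, the last without AdSIRT4 replicate 1. Of the 8 enzymes, 1 (PLOD2) was called with limma voom and without AdSIRT4 replicate 1, and between 0 and 1 with each sample left out. The log2 fold changes of P4HA1, P4HA2, PLOD1, PLOD2, PLOD3, LOX and LOXL1 kept their sign under all 17 alternatives. For P4HA1 they ran from 0.47 to 0.70, for P4HA2 from 0.39 to 0.52 and for PLOD2 from 0.23 to 0.30. P4HB turned to -0.018 in the limma fits on FPKM, to -0.025 with the length trend removed, alone or with the replicate block, and lay between -0.0058 (without AdSIRT4 replicate 2) and 0.054 (without AdCtrl replicate 1) when samples were left out. P4HA3 turned to -0.067 with the replicate block, -0.048 in limma on log2(FPKM + 0.1), -0.11 with both the block and removal of the length trend, and lay between -0.60 (without AdSIRT4 replicate 2) and 0.33 (without AdSIRT4 replicate 3) when samples were left out. It had no value with genes under a mean FPKM of 1 dropped. LOXL2 turned to 0.00037 with the length trend removed, 0.14 with limma voom, and lay between -0.10 (without AdSIRT4 replicate 3) and 0.15 (without AdSIRT4 replicate 1) when samples were left out. The cause of these changes was not tested.

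The median of the collagen processing list was -0.12 in limma on log2(FPKM + 1), whether or not low genes were dropped, -0.14 at a pseudocount of 0.1, -0.15 with limma voom, and between -0.15 and -0.076 with each sample left out. That of the cofactor list was -0.15 in the 3 limma fits on FPKM, -0.14 with the length trend removed, alone or with the replicate block, -0.042 with limma voom, and between -0.12 and -0.0020 with each sample left out. That of the other oxygenases was 0.045 in the limma fits at a pseudocount of 1, 0.050 at a pseudocount of 0.1, 0.085 with the length trend removed and 0.083 with the block added, 0.066 with limma voom, and between 0.078 and 0.14 with each sample left out. That of the hypoxia list was 0.34 in limma on log2(FPKM + 1), 0.36 after low genes were dropped, and between 0.45 and 0.53 with each sample left out. Medians in limma on log2(FPKM + 1) understate the change of low genes. The median of the collagen chains moved by less than 1 SD of the samples under every alternative, although it ran from -0.21 to 0.017 with each sample left out.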
